A study of Homo sapiens with 12 samples.

Results

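The genes described are those for the protein subunits of the mitochondrial ribosome. They are the 78 of 20289 genes in the deposited count table whose symbol is MRPL or MRPS, a number and at most 1 letter from A to C. By symbol, 49 belong to the large subunit (MRPL) and 29 to the small subunit (MRPS). The RNA came from U251, an established human glioblastoma cell line, as 12 libraries of oligo(dT)-selected RNA in 4 groups of 3. All cells had received a lentivirus. The control groups carried a control hairpin, and the knockdown groups carried a short hairpin RNA against CD44, a cell-surface receptor for hyaluronan. Each kind of cell was treated for 24 h with the solvent DMSO or with 50 µM temozolomide (TMZ), a DNA-alkylating drug used against glioblastoma. Groups are named by hairpin and treatment, as in control TMZ or knockdown DMSO.

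The labels name 1 hairpin target and give no hairpin sequence, and they do not say whether the cells were a clone or whether libraries of a group came from separate cultures. Every p-value therefore measures only the spread between these libraries. In RNA from whole cultures, fewer cells of a kind and less RNA per cell cannot be told apart.

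The mitochondrial ribosome translates the few proteins that mitochondrial DNA encodes, all of them parts of the respiratory chain and the ATP synthase. Its RNAs are made inside the organelle, but every one of its proteins is encoded in the nucleus, translated in the cytosol and imported. The small subunit binds the messenger RNA and decodes it. The large subunit holds the peptidyl transferase centre and the tunnel through which the new chain leaves, and many of its proteins have no bacterial relative.

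Library totals ran from 13506946 to 24757977 estimated counts. No member had fewer than 135 counts in any library, and all 78 were among the 12821 genes that passed the filter on low counts. CD44, the gene the hairpin targets, was at 1043 to 1127 CPM (counts scaled to library size) in control DMSO, 419 to 421 in knockdown DMSO, 804 to 851 in control TMZ and 319.8 to 333 in knockdown TMZ. Its groups did not overlap, and it fell with the hairpin by 1.38 on the log2 scale under DMSO (adjusted p = 3.21e-17) and by 1.33 under TMZ (1.17e-16). Of the glial markers, VIM, SOX2 and NES averaged 1717, 135 and 9.54 FPKM (fragments per kilobase of transcript, adjusted for depth), while GFAP and S100B averaged 0.499 and 0.222 FPKM. With the hairpin the mean of NES went from 7.37 to 13.8 FPKM under DMSO and from 6.27 to 10.7 under TMZ. SOX2 went from 149.6 to 115.4 and from 160.4 to 113.3, and VIM from 1738 to 2035 and from 1357 to 1740. The part of these shifts in the members' changes was not tested. Markers of leukocytes, endothelium, oligodendrocytes, neurons and fibroblasts averaged 0.103 to 0.459 FPKM. One library stood apart for the members: control DMSO 3 was the highest of the 12, with a median member 0.171 above its mean on the log2 scale. Members with a GC content over 55% had a median of 0.241 there.

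Levels were compared between genes in FPKM, which divides by transcript length. Averaged over the libraries, the members ran from 5.07 to 159.9 FPKM, with a median of 36.5 for the large-subunit genes and 28.2 for the small-subunit genes. The top of the order was held by large-subunit genes: MRPL51 at 159.9 FPKM, MRPL33 at 133.7, MRPL37 at 107.4, MRPL3 at 97.6 and MRPL12 at 96.5. MRPL3, MRPL12 and MRPL33 are relatives of bacterial ribosomal proteins, and MRPL37 has no bacterial counterpart. No small-subunit gene averaged more than 68.3 FPKM.

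Neighbours at the top were not separated in every library. MRPL51 ranged from 135.0 to 187.7 FPKM and MRPL33 from 111.0 to 172.0, so these overlapped. MRPL37, at 97.8 to 122.8 FPKM, and MRPL3, at 88.3 to 111.6, overlapped as well. The lowest members were MRPL50 at 5.07 FPKM, MRPS17 at 7.62, MRPL57 at 8.42 and MRPS36 at 9.41. MRPL50 (4.19 to 6.12) lay below MRPS17 (6.86 to 8.36) in every library, whereas MRPS17 and MRPL57 (7.49 to 9.54) overlapped. MRPS36 carries the family name but is now known as a part of the 2-oxoglutarate dehydrogenase complex.

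**Figure D1:**
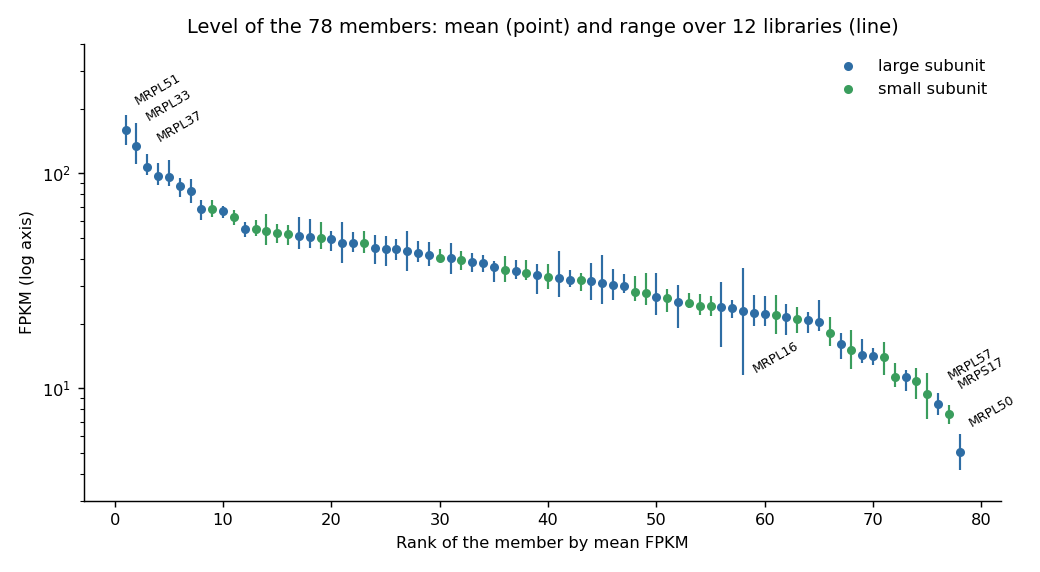
Mean FPKM of each of the 78 members (point, log axis) with its range over 12 libraries (line), ordered by rank; blue marks the large and green the small subunit. MRPL51 is highest at 159.9 FPKM and MRPL50 lowest at 5.07, and the line of MRPL16 is long for its level because its 4 group means were 32.4, 12.1, 33.2 and 14.1.

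The members are spread over 21 chromosomes (GENCODE 29, GRCh38). The start of 29 lies within 1000 nt of the start of a protein-coding gene on the other strand, and 34 share exonic bases with another protein-coding gene on either strand. Whether the counting used strand is not given in the sources used here, so values of those 34 are less certain. Likewise 34 members have pseudogenes named after them, 75 in all, with which reads could be shared.

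The promoters were searched for short motifs that some of the members hold. Similar gene families were not compared. RefSeq promoter sequences (GRCh38.p14, 250 bases before to 50 after each start) were found for 69 members. The 8 letters AAGATGGC, a core of sites bound by the factor YY1, occurred on either strand in 20 of the 69 (28.99%) and in 3.91% of 15843 protein-coding promoters. On the strand of the gene and within 50 bases after the start they occurred in 15 members (21.7%) and in 2.18% of all. In those 15 the first letter lay 7 to 36 bases past the start, and in 12 the ATG inside the letters is an annotated start codon. A YY1 site of this kind that covers the start codon is known as a TISU element and belongs to genes with very short leaders. The following 6 windows of 30 bases show it, 5′ to 3′ on the strand of the gene, with the letters in capitals. Of the 6, MRPL51 has no annotated start codon at the letters.
MRPL50 (chr9:101398577-101398606, minus): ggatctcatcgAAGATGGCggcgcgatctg
MRPL51 (chr12:6493223-6493252, minus): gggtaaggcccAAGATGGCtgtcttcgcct
MRPS18A (chr6:43687764-43687793, minus): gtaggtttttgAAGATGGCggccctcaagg
MRPS18B (chr6:30617852-30617881, plus): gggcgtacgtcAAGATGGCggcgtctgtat
MRPS27 (chr5:72320206-72320235, minus): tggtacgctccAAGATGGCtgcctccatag
MRPS30 (chr5:44808949-44808978, plus): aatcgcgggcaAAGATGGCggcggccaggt

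The 7 letters CCGGAAG, the core of sites for ETS factors such as GABP, occurred on either strand in 29 of the 69 promoters (42.03%) and in 14.2% of the protein-coding ones. Within 50 bases of the start they were in 24 members (34.8%) and in 8.28% of all. They are shown for members whose RNA is described in the sections on knockdown and temozolomide, with CTTCCGG where the letters lie on the other strand.
MRPL16 (chr11:59810766-59810795, minus): agtgaacacaaCTTCCGGccccactgagcg
MRPL3 (chr3:131502985-131503014, minus): tgtaaaacgcaCCGGAAGtgggtccggcgg
MRPL33 (chr2:27771700-27771729, plus): cgggccgtgccCCGGAAGcagttgttgttg
MRPS12 (chr19:38930928-38930957, plus): acggatagcgcCCGGAAGaggctagaagct
MRPS21 (chr1:150293839-150293868, plus): cgtaatttccgCTTCCGGtagtgagaaccc
MRPS22 (chr3:139343988-139344017, plus): cctcccaaccaCTTCCGGcgcaagtggctt

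The palindromic motif of NRF1 was in 8 of 69 promoters in a form with 1 free letter (11.6%, against 8.58%) and in 1 in its strict form (1.45%, against 1.76%), and the E-box CACGTG in 6 (8.70%, against 8.88%). A match is a description of these letters only. Members with and without the YY1 letters had medians of -0.04 and -0.13 on the log2 scale with knockdown under DMSO. Of these members, 5 of 20 and 13 of 49 fell, beside 21.4% of all genes tested. With TMZ in control cells the medians were -0.07 and -0.05. For the ETS letters under DMSO the medians with and without were -0.11 and -0.13.

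The first question was how the RNA of these genes differed with the CD44 hairpin. Differences were tested with edgeR's quasi-likelihood test over all genes, and a gene is called, rising or falling, at a Benjamini-Hochberg adjusted p below 0.05; SE is the standard error of the log2 fold change. Under DMSO 21 members fell and 4 rose. That is 32.1% of the members, against 42.6% of all genes tested, of which 21.1% rose and 21.4% fell. The large subunit had 14 falls and 2 rises among 49, the small subunit 7 and 2 among 29. The median change was -0.13 for the large subunit, -0.09 for the small subunit and -0.00 for all genes tested.

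Under TMZ, in libraries that share none with the first comparison, 22 members fell and 5 rose. That is 34.6% of the members, against 42.3% of all genes, of which 22% rose and 20.3% fell. The large subunit had 16 falls and 3 rises, with a median of -0.13. The small subunit had 6 falls and 2 rises, with a median of -0.05, and the median of all genes was 0.01. In either comparison the share of members called lay below that of all genes, and most of the calls were falls. Most changes were small: 57 of the 78 stayed within 0.25 of 0 on the log2 scale in all 4 comparisons of 2 groups, and 76 within 0.5.

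**Figure D2:**
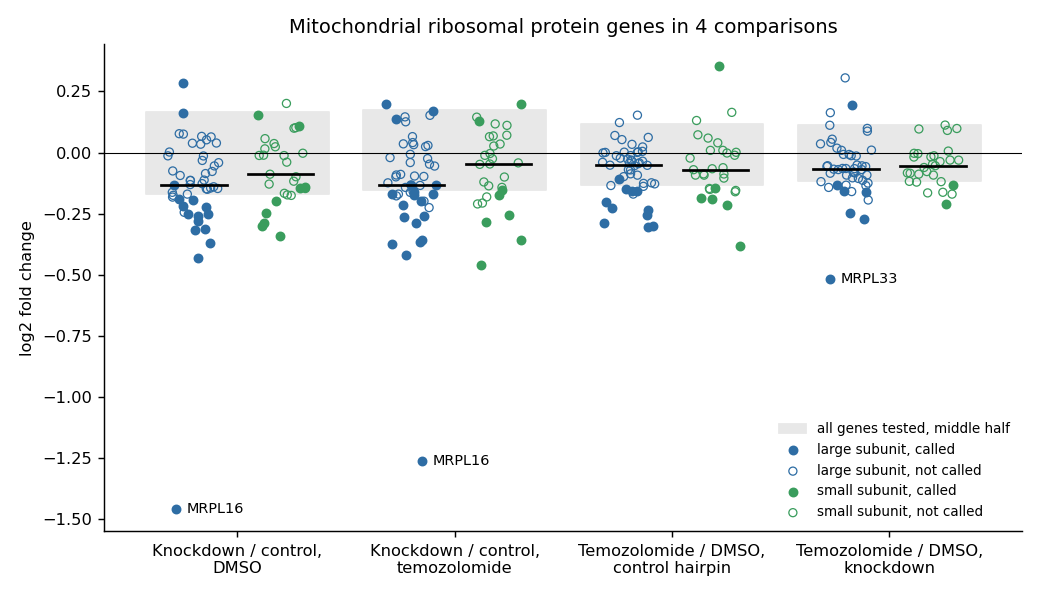
Log2 fold change of each member (points; filled where called) in the 4 comparisons, large subunit in blue and small in green, with black lines for the medians and grey bands for the middle 50% of all genes tested. With knockdown MRPL16 lies apart at -1.46 and -1.26, and the medians of both subunits lie below 0 in all 4, though with TMZ 2 of the 4 lie above 0 when scaled by library totals alone.

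Of the falls, 12 were shared by both knockdown comparisons, which is 57.1% of the 21 under DMSO and 54.5% of the 22 under TMZ. Over all genes tested, 1809 falls were shared, which is 65.8% and 69.5% of those lists. The shared members are MRPL11, MRPL15, MRPL16, MRPL18, MRPL19, MRPL21, MRPL24, MRPL36, MRPL44, MRPS11, MRPS16 and MRPS21. MRPL3, MRPS5 and MRPS27 rose in both, and no member was called in opposite directions.

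MRPL16, whose bacterial relative L16 sits at the tRNA sites of the large subunit, changed by far more than the other members. It was at 34.5, 33.6 and 40.3 CPM in control DMSO and at 13.6, 12.6 and 13.3 CPM in knockdown DMSO. Under TMZ it was at 34.2, 35.9 and 36.01 CPM in control cells and at 15.03, 14.9 and 14.2 CPM in knockdown cells. All 6 knockdown libraries lay below all 6 control libraries, with no value between 15.1 and 33.5 CPM.

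The log2 fold change of MRPL16 was -1.46 (SE 0.08, adjusted p = 4.07e-12) under DMSO and -1.26 (SE 0.07, adjusted p = 2.27e-11) under TMZ, which are folds of 0.364 and 0.418. Counted from the most negative of the 12821 genes, it ranked 52 and 78, close to CD44 at 56 and 70. With TMZ it was not called, at -0.04 in control cells (adjusted p = 0.743) and 0.16 in knockdown cells (0.184). The gene lies at chr11:59806135-59810872 on the minus strand, with 6 exon blocks. It shares no exonic base with another protein-coding gene, has no named pseudogene and has no gene start close by on the other strand. Under the 18 other settings of the analysis, which include leaving out each library of a comparison, the call held each time, at -1.51 to -1.35 and -1.31 to -1.18.

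Among the other large-subunit falls, MRPL11 is the relative of bacterial L11 at the base of the stalk that recruits translation factors (chr11:66435075-66466738, minus). It was at 57.4, 49.9 and 57.6 CPM in control DMSO against 45.3, 44.1 and 38.9 in knockdown DMSO. Under TMZ it was at 50.2, 54.2 and 51.2 CPM in control and 41.5, 36.7 and 42.3 in knockdown cells. The groups did not overlap in either case, and the log2 fold change was -0.37 in both (SE 0.07 in both, adjusted p = 0.000167 and 0.000137). MRPL11 shares exonic bases with PELI3 on the other strand, and PELI3 itself was not called (-0.07 and 0.08).

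MRPL21, the relative of bacterial L21 (chr11:68891276-68903835, minus), was at 26.6, 25.7 and 31.7 CPM in control DMSO against 21.6, 19.8 and 21.0 in knockdown DMSO. Its groups did not overlap, and it fell by 0.43 on the log2 scale (SE 0.08, adjusted p = 0.00025). Under TMZ the values were 23.9, 23.5 and 23.1 CPM against 21.6, 19.1 and 18.1, a fall of 0.26 (adjusted p = 0.0151). That second call ended without knockdown TMZ 2 (-0.24, adjusted p = 0.0552) or without knockdown TMZ 3 (-0.22, 0.0648).

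MRPL36, a very small protein of the large subunit (chr5:1798386-1801366, minus), was at 18.4, 16.9 and 19.4 CPM in control DMSO against 15.3, 14.5 and 15.3 in knockdown DMSO. In the TMZ groups it was at 15.6, 18.4 and 16.2 CPM in control and 11.5 to 14 in knockdown cells. No group overlapped its partner, and the fall under TMZ (-0.42, SE 0.09, adjusted p = 0.00107) held under all 18 settings. The smaller fall under DMSO (-0.28, adjusted p = 0.0182) was lost when knockdown DMSO 2 was left out (-0.25, 0.0636), and likewise without control DMSO 1 (-0.27, 0.0501) or 3 (-0.23, 0.0907). After a GC correction it was at -0.16 (0.216).

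MRPL24, the relative of bacterial L24, showed the same contrast. It fell under TMZ from 43.1, 47.1 and 43.9 CPM to 32.8, 34.4 and 37.0 CPM (-0.36, SE 0.07, adjusted p = 0.000343), and the groups did not overlap. Under DMSO the values were 44.8, 43.6 and 54.5 against 43.0, 40.1 and 40.4 CPM (-0.22, adjusted p = 0.0188). That call went without control DMSO 3 (-0.10, 0.219), without knockdown DMSO 2 (-0.20, 0.067) and without knockdown DMSO 3 (-0.20, 0.0674). MRPL19 fell by 0.25 (SE 0.04, adjusted p = 5.53e-05) and 0.36 (SE 0.04, adjusted p = 6.53e-07), from 132.9 to 136.1 CPM to 109.6 to 117.8 CPM under DMSO and from at least 131.9 CPM to at most 112.1 CPM under TMZ. Its groups were apart in both, although fits to FPKM in place of counts ended both calls, with the change shrinking to -0.06 and -0.16. MRPL19 shares exonic bases with GCFC2 on the other strand.

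Some large-subunit genes fell under DMSO and were not called under TMZ. MRPL12 is the relative of the bacterial stalk protein L7/L12 and has been found bound to the mitochondrial RNA polymerase. It was at 117.4, 105.1 and 121.1 CPM in control DMSO against 99.8, 98.6 and 89.6 in knockdown DMSO, groups that did not overlap (-0.26, SE 0.05, adjusted p = 0.000448). MRPL4 was at 79.6, 69.1 and 75.8 against 61.4, 60.5 and 59.1 CPM (-0.31, SE 0.06, adjusted p = 0.000106). MRPL38 was at 54.6, 49.8 and 55.9 against 44.5, 44.6 and 45.7 CPM (-0.25, SE 0.05, adjusted p = 0.000456). All 3 were separated between the groups, and MRPL2 fell too, by 0.32 (SE 0.06, adjusted p = 0.000345). Under TMZ the changes were -0.09 for MRPL12, -0.10 for MRPL4 and 0.04 for MRPL38, none called. The test of that difference is given with the temozolomide results.

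Among small-subunit genes, MRPS11, the relative of bacterial S11 on the platform that faces the messenger RNA (chr15:88467453-88480773, plus), was at 29.4, 29.8 and 33.5 CPM in control DMSO against 24.6, 26.6 and 22.3 in knockdown DMSO. Under TMZ it was at 27.98 to 30.75 CPM in control and 24.4, 24.9 and 23.7 in knockdown cells. It did not overlap in either comparison and fell by 0.34 (SE 0.07, adjusted p = 0.000705) and 0.28 (SE 0.07, adjusted p = 0.00313).

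MRPS21, the relative of bacterial S21 (chr1:150293720-150308979, plus), has 8 pseudogenes named after it. It was at 28.99, 31.5 and 28.8 CPM in control TMZ and 20.8, 22.0 and 22.0 in knockdown TMZ, clearly apart (-0.46, SE 0.08, adjusted p = 0.000151). Under DMSO it was at 26.9, 28.1 and 33.8 against 27.0, 22.1 and 24.0 CPM. There the groups overlapped, and the call (-0.29, SE 0.08, adjusted p = 0.00895) ended without control DMSO 3 (-0.18, 0.103) or knockdown DMSO 2 (-0.22, 0.0636).

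MRPS12 is the relative of bacterial S12 in the decoding centre. It was at 21.2, 17.4 and 21.7 CPM in control DMSO against 17.2, 16.7 and 15.3 in knockdown DMSO, without overlap but with a gap of under 1 CPM. Its fall (-0.30, SE 0.09, adjusted p = 0.009) was lost without control DMSO 3 (-0.24, 0.0626) or knockdown DMSO 3 (-0.24, 0.0631). MRPS22, mutated in some inherited mitochondrial disorders, was at 40.8, 44.1 and 47.0 CPM in control TMZ and 37.0, 38.9 and 40.8 in knockdown TMZ (-0.17, adjusted p = 0.0219), groups that nearly touched, and the call held under 10 of 18 settings. MRPS16 fell in both comparisons by small amounts (-0.14, adjusted p = 0.0137, and -0.15, adjusted p = 0.00946). The first was lost without control DMSO 3 (-0.12, 0.073) or knockdown DMSO 3 (-0.10, 0.107).

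The rises with knockdown were fewer and small. MRPL3, the relative of bacterial L3 near the peptidyl transferase centre (chr3:131462212-131502983, minus), was at 155.9, 151.7 and 157.3 CPM in control DMSO against 180.9, 167.8 and 171.1 in knockdown DMSO. Under TMZ it was at 141.8, 146.9 and 143.3 CPM in control and 157.5, 157.1 and 160.1 in knockdown cells. The groups were separate each time, with log2 fold changes of 0.16 (SE 0.04, adjusted p = 0.00106) and 0.14 (SE 0.04, adjusted p = 0.00414). The first was 0.08 (adjusted p = 0.0562) after a correction for GC content.

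MRPS5, the relative of bacterial S5, was at 65.9, 70.2 and 66.9 CPM in control DMSO against 76.0, 73.9 and 76.1 in knockdown DMSO (0.15, SE 0.04, adjusted p = 0.00763), with the knockdown libraries all higher. Under TMZ its change was 0.13 (adjusted p = 0.0222), which was lost without control TMZ 2 (0.11, 0.0826), control TMZ 3 (0.11, 0.0908) or knockdown TMZ 1 (0.10, 0.102), and after a GC correction (0.08, 0.145). MRPS27, a small-subunit protein of the pentatricopeptide repeat family that binds RNA, was at 80.4, 78.5 and 81.0 CPM in control TMZ and 93.9, 90.7 and 90.7 in knockdown TMZ. Those groups did not overlap (0.20, SE 0.04, adjusted p = 0.000394). Under DMSO it was at 91.9, 86.3 and 87.2 against 93.1, 98.6 and 94.2 CPM (0.11, adjusted p = 0.0357), and that call held under 9 of 18 settings. It was lost without replicate 2 or 3 of the knockdown (0.09, 0.144, and 0.12, 0.0519) or of the control (0.09, 0.0999, and 0.10, 0.1), and after a GC correction it was at 0.03 (0.552).

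Under TMZ alone, MRPL37 was called higher, at 146.9, 144.7 and 143.6 CPM in control and 175.8, 159.0 and 164.8 in knockdown cells (0.20, SE 0.04, adjusted p = 0.000366). MRPL49 was at 66.8, 68.0 and 62.6 against 75.02, 75.5 and 71.1 CPM (0.17, SE 0.04, adjusted p = 0.00404). Both had separate groups. The difference of these changes from those under DMSO, where neither gene was called, did not pass the test (adjusted p = 0.138 for MRPL37 and 0.478 for MRPL49), and in fits to FPKM the change of MRPL49 was not called (0.12, 0.149).

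MRPL33, the relative of the small bacterial protein L33 (chr2:27771717-27988087, plus), was called higher with knockdown under DMSO. It was at 64.6, 56.7 and 74.8 CPM in control DMSO against 85.4, 77.99 and 76.4 in knockdown DMSO, apart by a narrow gap (0.28, SE 0.08, adjusted p = 0.00672). In control TMZ it was at 57.9, 70.5 and 59.6 CPM and in knockdown TMZ at 53.4, 54.6 and 59.7, groups that overlapped (-0.16, adjusted p = 0.117). MRPL33 shares exonic bases with BABAM2 on the same strand.

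**Figure D3:**
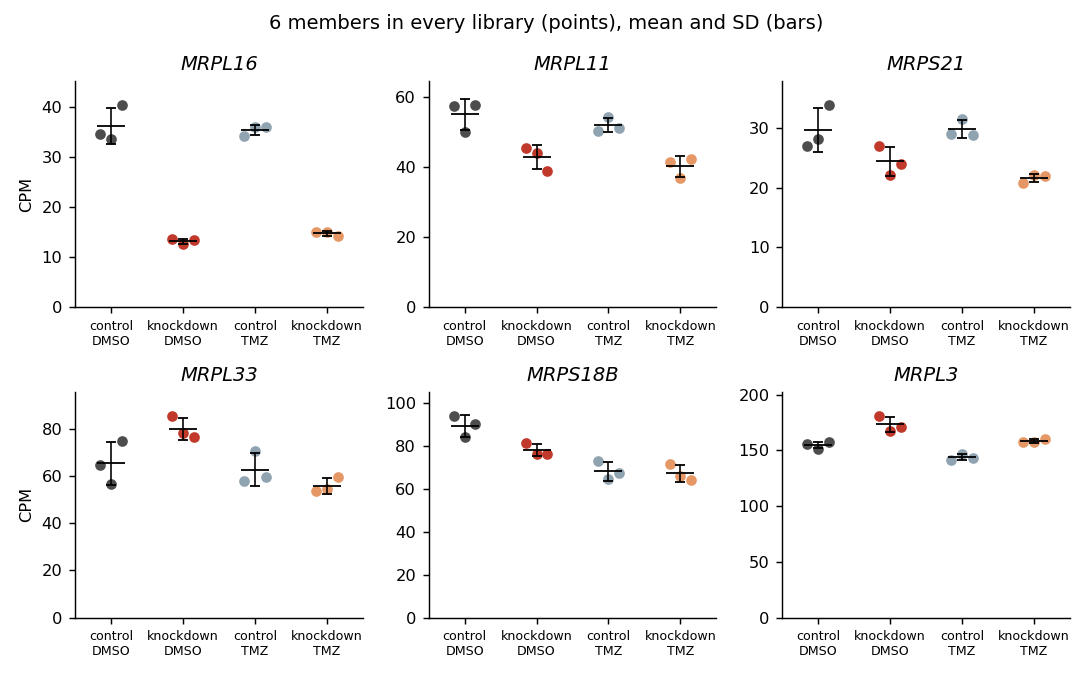
CPM of 6 members in every library (points) with group mean and SD (bars; n = 3), on axes that start at 0. MRPL16 stands at 12.6 to 15.03 CPM in the 6 knockdown libraries and 33.6 to 40.3 in the 6 control libraries, MRPL33 is highest in knockdown DMSO, and MRPS18B is highest in control DMSO.

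The second question was how 24 h of temozolomide changed these RNAs in either kind of cell. These comparisons reuse the libraries of the knockdown comparisons, so values are set side by side without a test of overlap. In control cells 16 members fell and 1 rose, which is 21.8% of the members against 27.5% of all genes, of which 11.7% rose and 15.8% fell. The large subunit had 11 falls and no rise, the small subunit 5 falls and 1 rise. In knockdown cells 8 fell and 1 rose, which is 11.5% against 22.3% of all genes, of which 9.05% rose and 13.2% fell.

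The median changes of the large and the small subunit were -0.05 and -0.07 in control cells and -0.07 and -0.05 in knockdown cells, but scaling by library totals alone moved them to 0.02, -0.00, -0.01 and 0.01. With that scaling 6 members fell and 4 rose in control cells, and 1 fell and 2 rose in knockdown cells. Among all genes 22.4% were then higher and 10.1% lower in control cells, and 19.8% and 8.41% in knockdown cells. The median of all genes moved with that scaling as well, from -0.00 to 0.06 in control cells and from 0.00 to 0.07 in knockdown cells, so the members' medians stayed below it. The count of falls in control cells was 9 without control DMSO 3 and 9 without control TMZ 3. In those runs 13.3% and 12.6% of all genes fell. The count in knockdown cells was 2 without knockdown DMSO 1 and 3 without knockdown TMZ 2, beside 10.4% and 10.2% of all genes.

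MRPS18B was the member with the most negative change in control cells. It was at 93.9, 84.0 and 89.9 CPM in control DMSO and 73.0, 64.4 and 67.2 in control TMZ, well separated (-0.38, SE 0.05, adjusted p = 2.03e-05). In knockdown cells it went from 81.2, 76.1 and 76.4 CPM to 71.6, 66.0 and 64.0 (-0.21, SE 0.06, adjusted p = 0.00874), again without overlap, though with library totals alone it was -0.15 (0.053). With knockdown under DMSO it fell by 0.20 (SE 0.05, adjusted p = 0.00509), a call lost in fits to FPKM (-0.15, 0.0599), and under TMZ its change was -0.03 and not called.

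MRPL12 fell in control cells from 105.1 to 121.1 CPM to 96.4, 93.0 and 88.5 CPM (-0.30, SE 0.05, adjusted p = 0.00018). MRPL4 fell to 64.7, 59.5 and 57.7 CPM (-0.30, SE 0.05, adjusted p = 0.000331), and MRPL38 to 46.6, 45.4 and 44.0 CPM (-0.24, SE 0.05, adjusted p = 0.00136). MRPS30 fell from 44.2, 45.8 and 47.6 CPM to 38.5, 40.5 and 39.9 (-0.21, SE 0.05, adjusted p = 0.00317). None of these 4 genes had overlapping groups, and the calls held under all 18 settings. MRPS30 is named for the small subunit, yet in the mammalian ribosome it sits in the large one. MRPL57 also fell, from 20.9, 20.4 and 22.1 CPM to 16.8, 18.6 and 16.7 (-0.29, adjusted p = 0.0165). Its call was lost without control DMSO 3 (-0.25, 0.0731), control TMZ 1 (-0.26, 0.0603) or control TMZ 3 (-0.26, 0.062).

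In knockdown cells none of MRPL12, MRPL4, MRPL38 and MRPS30 was called with TMZ. There MRPL33 had the most negative change, from 85.4, 77.99 and 76.4 CPM to 53.4, 54.6 and 59.7 (-0.52, SE 0.08, adjusted p = 8.39e-05), while in control cells its change was -0.07 (adjusted p = 0.566). The knockdown groups were far apart and the control groups overlapped.

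MRPL15 and MRPL3 were called in all 4 comparisons, MRPL15 lower each time and MRPL3 higher with knockdown and lower with TMZ. MRPL15 was at 54.7 to 62.5 CPM in control DMSO, 51.6 to 52.1 in knockdown DMSO, 49.4 to 52.3 in control TMZ and 45.3 to 47.1 in knockdown TMZ. Its calls under TMZ (-0.13, adjusted p = 0.043) and with TMZ in knockdown cells (-0.16, adjusted p = 0.0275) held under 8 and 9 of 18 settings. The falls of MRPL3 with TMZ (-0.11, adjusted p = 0.0314, and -0.13, adjusted p = 0.0111) held under 9 and 13 settings. The first was lost without control DMSO 1 (-0.10, 0.104), control DMSO 3 (-0.09, 0.103), control TMZ 1 (-0.10, 0.0958) or control TMZ 3 (-0.10, 0.0845). The second was lost without knockdown DMSO 1 (-0.10, 0.0753).

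The 1 rise with TMZ in control cells was MRPS36, and in knockdown cells it was MRPL10, a stalk-base protein. MRPS36 went from 12.9, 9.88 and 12.04 CPM to 14.03, 15.4 and 15.3 without overlap (0.35, SE 0.12, adjusted p = 0.0401). MRPL10 went from 34.8, 32.6 and 32.0 to 42.9, 35.8 and 34.7 CPM, with overlap (0.19, adjusted p = 0.0443). Neither was firm: MRPL10 was at 0.10 (adjusted p = 0.307) without knockdown TMZ 1, and MRPS36 at 0.26 (0.163) without control DMSO 2 and at 0.23 (0.178) after a GC correction, with both calls held under 11 of 18 settings. MRPS35, a small-subunit protein, fell in knockdown cells from 105.9, 103.3 and 104.5 CPM to 95.5, 90.3 and 101.1 (-0.13, adjusted p = 0.03). That was -0.09 (0.203) without knockdown TMZ 2 and held under 9 of 18 settings.

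Whether the temozolomide response differed between the kinds of cell was tested as an interaction in the same edgeR model. No member was called, against 1.05% of all genes, of which 0.437% were higher and 0.616% lower. At an unadjusted p below 0.05 there were 12 members, against 17.8% of all genes, and DESeq2 called 1. The members closest to the threshold were MRPL38 (0.29, SE 0.07, adjusted p = 0.0508) and MRPL33 (-0.45, SE 0.11, adjusted p = 0.0559). MRPL38 was the member that DESeq2 called (0.28, adjusted p = 0.0442), and it was also called without control DMSO 2 (0.33, 0.0222), control TMZ 1 (0.31, 0.0358) or knockdown TMZ 3 (0.31, 0.0365). After a GC correction it was at 0.15 (adjusted p = 0.398). MRPL33 was called without control DMSO 3 (-0.57, 0.0138), control TMZ 1 (-0.51, 0.0314) or knockdown TMZ 3 (-0.49, 0.0347), and was at -0.40 (0.156) after a GC correction.

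The balance of the subunits was described as the log2 ratio of the summed FPKM of the large-subunit to the small-subunit genes in each library. It was 1.226, 1.192 and 1.268 in control DMSO against 1.190, 1.142 and 1.187 in knockdown DMSO. Under TMZ it was 1.236, 1.275 and 1.211 in control and 1.174, 1.181 and 1.146 in knockdown cells. The 6 control libraries lay at 1.192 to 1.275 and the 6 knockdown libraries at 1.142 to 1.190. The ratio was thus lower in every knockdown library, with a gap that is small beside the group SDs of 0.0185 to 0.0381. The large-subunit sums include MRPL16, whose group means were 32.4 and 33.2 FPKM in control and 12.1 and 14.1 in knockdown cells. Taking MRPL16 out of the sums ends the separation. In control DMSO 2 the large and small sums were 2060 and 901.5 FPKM, with MRPL16 at 29.96. In knockdown DMSO 1 they were 2226 and 975.9 FPKM, with MRPL16 at 12.45. Without MRPL16 the ratio of that control library lies below that of that knockdown library, so the ranges overlap.

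The large-subunit genes summed to 2225 FPKM (SD 159, n = 3) in control DMSO and 2131 (SD 83.4) in knockdown DMSO, a difference within the spread. Under TMZ they summed to 2226 (SD 52) in control and 2105 (SD 54.7) in knockdown cells. The small-subunit genes summed to 937.6 to 948.5 in all 4. MRPL33, the gene second in level, rose under DMSO. Without it the control libraries lay at 1.112 to 1.181 and the knockdown libraries at 1.029 to 1.098. When MRPS18A and MRPS30 were counted with the large subunit, where they sit, and MRPS36 was left out, the ranges were 1.335 to 1.422 and 1.292 to 1.338 and overlapped slightly. The mean of log2(FPKM + 1), which weighs every gene alike, differed between large and small by 0.322 to 0.428 in control and 0.285 to 0.340 in knockdown libraries, which overlapped too. With TMZ the ratio of sums differed by 0.012 in control and -0.006 in knockdown cells, less than the SDs. No p is given for these ratios, since the members were chosen with earlier results of these data known.

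**Figure D4:**
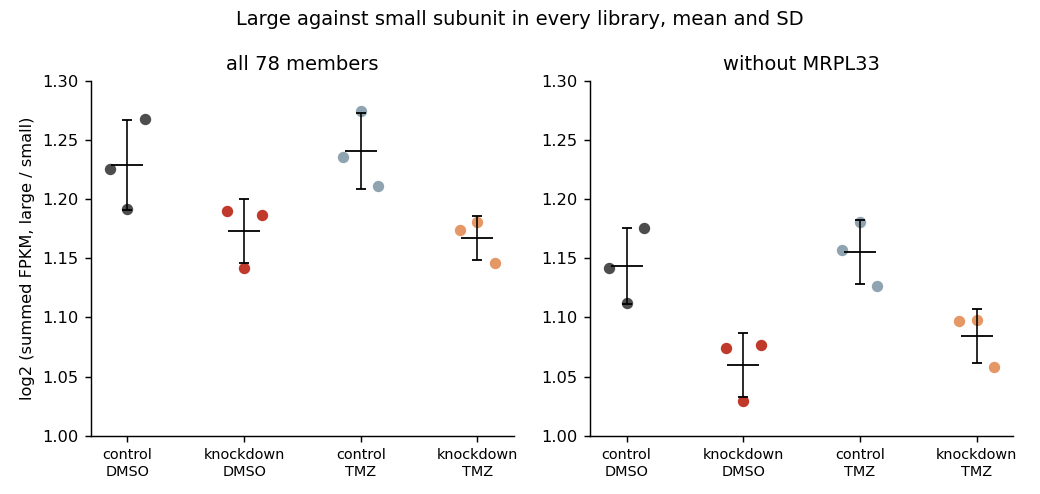
Log2 ratio of summed FPKM, large to small subunit, in every library (points) with group mean and SD (bars, n = 3), for all 78 members and without MRPL33; the axis does not start at 0. The knockdown libraries, at 1.142 to 1.190, lie below the control libraries, at 1.192 to 1.275, and without MRPL33 at 1.029 to 1.098 against 1.112 to 1.181. MRPL16, the member that fell most with knockdown, is included in both panels. Once it is taken out of the sums of all members, the control and knockdown ranges overlap.

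Bacterial S18 has 3 human relatives in the family, MRPS18A, MRPS18B and MRPS18C, of which MRPS18A sits in the large subunit. At 54.0 FPKM MRPS18B was the highest, followed by MRPS18A at 33.1 and MRPS18C at 28.2. MRPS18A (chr6:43671303-43687791, minus) was called in none of the comparisons, with values of 32.9 to 43.9 CPM over the libraries and changes of -0.16 to 0.12. MRPS18B (chr6:30617709-30626395, plus) fell in the DMSO knockdown comparison and in both TMZ comparisons. MRPS18C (chr4:83455932-83469735, plus) fell with knockdown under TMZ, from 36.8, 38.8 and 40.1 CPM to 31.9, 31.0 and 34.1, without overlap (-0.26, SE 0.06, adjusted p = 0.00101).

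Members that share a start region with another gene did not all move with it. MRPL36 starts 34 nt from NDUFS6, a complex I subunit gene on the other strand, and NDUFS6 fell by 0.25 (adjusted p = 0.00367) and 0.46 (adjusted p = 7.75e-06) with knockdown beside the falls of 0.28 and 0.42 in MRPL36. MRPS11 starts 34 nt from MRPL46, and while MRPS11 fell in both knockdown comparisons, MRPL46 was at 9.94, 9.95 and 12.5 CPM in control DMSO against 12.1, 10.9 and 11.2 in knockdown DMSO. These overlapped (0.08, adjusted p = 0.591), and under TMZ its change was -0.04 (adjusted p = 0.78). MRPL49 starts 290 nt from FAU, which encodes a cytosolic ribosomal protein. MRPL49 and FAU share exonic bases on opposite strands, so their values are less certain. FAU fell by 0.42 (adjusted p = 1.71e-05) and 0.38 (adjusted p = 5.23e-05), whereas MRPL49 was at 0.08 and 0.17.

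The change of a member was related to the GC content of its longest transcript in some comparisons. Across the 78 genes, which are not independent replicates and share libraries, Spearman's rho was -0.43 with knockdown under DMSO and -0.48 with TMZ in control cells. It was 0.04 with knockdown under TMZ and 0.12 with TMZ in knockdown cells. Over all genes the same values were -0.24, -0.34, 0.06 and 0.08. Under DMSO the 20 members over 55% GC had a median of -0.18 with knockdown (8 fell, 0 rose), the 28 between had -0.13 (10 fell, 1 rose) and the 30 under 45% had -0.01 (3 fell, 3 rose). The respective medians of all genes were -0.10, -0.01 and 0.06, so the members lay lower in each class. With TMZ in control cells the members' medians were -0.14, -0.07 and 0.00, and those of all genes -0.09, -0.03 and 0.07. The comparisons with this relation share the control DMSO libraries, of which control DMSO 3 was the highest for members over 55% GC. Without control DMSO 3, 12 members fell with knockdown under DMSO in place of 21, which is 15.4% of the members against 18% of all genes, where with it the shares were 26.9% and 21.4%. After a GC correction 31 fell and 2 rose there (39.7% and 2.6%), against 26% and 18% of all genes. The large subunit has a median GC content of 50.7% and the small subunit 46.9%.

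**Figure D5:**
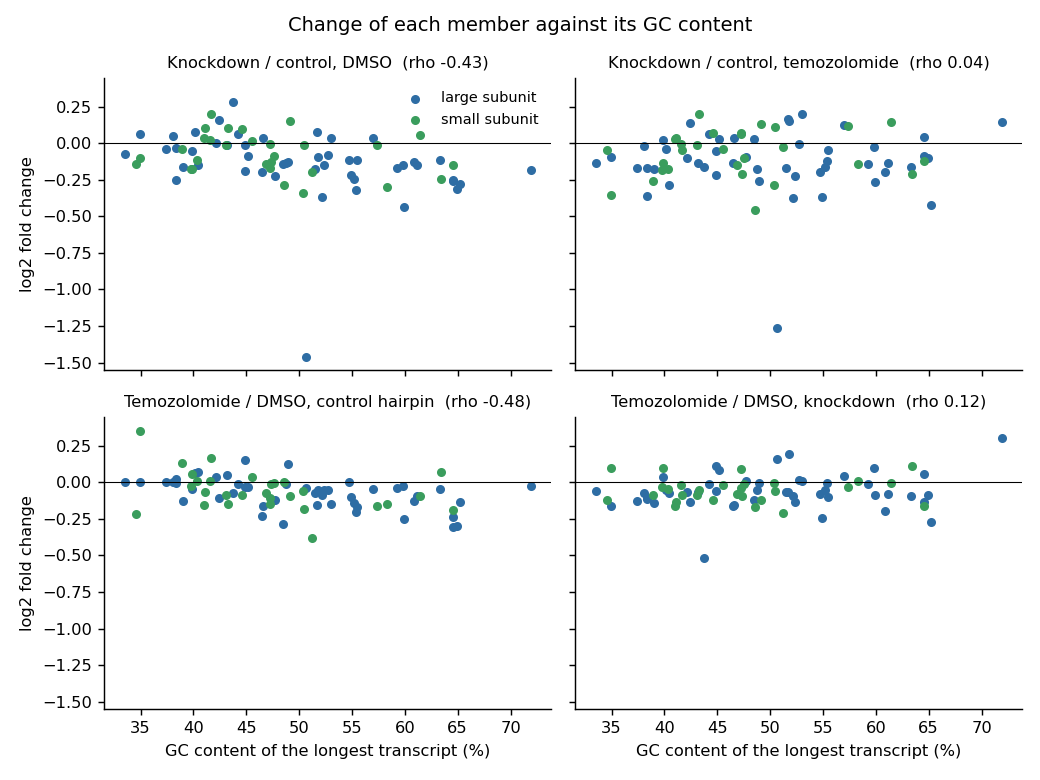
Log2 fold change of each member against the GC content of its longest transcript (%), in the 4 comparisons, large subunit in blue and small in green. The points slope down for knockdown under DMSO (rho -0.43) and for TMZ in control cells (rho -0.48), and have no clear slope in the other panels (0.04 and 0.12).

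Other genes of mitochondrial translation were counted by lists for their role. Among all genes tested 21.4% fell and 21.1% rose with knockdown under DMSO, and 20.3% fell and 22% rose under TMZ, the shares beside which the counts of each list stand. Of 5 mitochondrial ribosomal proteins with other names, AURKAIP1 fell with knockdown under DMSO (-0.25, adjusted p = 0.0123) and with TMZ in control cells (-0.26, adjusted p = 0.0137). DAP3, a GTP-binding protein of the small subunit, was called in none. Of 28 genes for assembly of the ribosome and modification of its RNA, 4 rose and 4 fell with knockdown under DMSO, and 5 rose and 3 fell under TMZ. RPUSD4, a pseudouridine synthase acting on the large ribosomal RNA, rose by 0.62 (SE 0.08, adjusted p = 3.65e-06) and 0.69 (adjusted p = 7.72e-07). NOA1 and METTL17, both assembly factors of the small subunit, fell by 0.29 and 0.27 under DMSO.

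Of 16 translation factors and activators 5 fell with knockdown under DMSO and 3 under TMZ, and none rose. SLIRP, which stabilises mitochondrial messenger RNA together with LRPPRC, fell by 0.54 (SE 0.13, adjusted p = 0.00195) and 0.48 (adjusted p = 0.00366). OXA1L, which inserts the new chains into the inner membrane, fell by 0.34 (adjusted p = 4.25e-05) and 0.21 (adjusted p = 0.00402). TUFM, the elongation factor that brings tRNA, fell by 0.14 in both. Of 20 aminoacyl-tRNA synthetases 7 fell and 2 rose with knockdown under DMSO, and 3 fell and 2 rose under TMZ. Among 9 genes of mitochondrial transcription, 3 fell and 2 rose with knockdown under DMSO, and 2 fell and 1 rose under TMZ. Their medians were 0.01 and 0.04. TOP1MT, the mitochondrial topoisomerase, fell by 0.46 (adjusted p = 1.33e-06) and 0.34 (adjusted p = 4.52e-05). TFB2M rose in both comparisons and TFAM rose under DMSO.

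The products of this ribosome are encoded by 13 mitochondrial genes, of which 8 fell with knockdown under DMSO, 7 under TMZ, 8 with TMZ in control cells and 2 with TMZ in knockdown cells. Among all genes tested, 15.8% fell with TMZ in control cells and 13.2% in knockdown cells. None of the 13 rose, and their medians were -0.18, -0.19, -0.16 and -0.10. MT-CO3, a subunit of cytochrome oxidase, fell by 0.29 (SE 0.04, adjusted p = 1.18e-06) and 0.22 (adjusted p = 2.98e-05) with knockdown. The counts depended on the settings and ran from 1 to 11 falls under DMSO and from 0 to 8 with TMZ in control cells. Among 16 regulators of mitochondrial gene expression, 8 fell and 3 rose with knockdown under DMSO, and 7 fell and 3 rose under TMZ. ATF5, a factor of the mitochondrial stress response, rose by 0.55 and 0.56 with knockdown (adjusted p = 0.000226 and 9.93e-05). DDIT3 rose in both comparisons as well, while ATF4, HSPD1 and HSPE1 fell in both. The falls of ATF4 and HSPD1 held under all 18 settings. ESRRA, an activator of respiratory genes, fell by 0.52 and 0.55 (adjusted p = 2.83e-05 and 1.4e-05). NRF1 was called in no comparison, and MYC fell with TMZ by 0.46 and 0.35 (adjusted p = 5.32e-06 and 0.000181). MYC was also called lower with knockdown under DMSO, but that call held under only 8 of 18 settings, over which the change ran from -0.21 to -0.08.

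The cytosolic ribosomal protein genes are the family most like these by function. Of 82 tested, 79 fell with knockdown under DMSO and 77 under TMZ, none rose, and the medians were -0.35 and -0.40. The mitochondrial family had 21 and 22 falls among 78 and medians of -0.12 and -0.10. With TMZ the cytosolic family had 19 falls in control and 14 in knockdown cells, with medians of -0.05 and -0.11, beside -0.06 and -0.07 for the mitochondrial family. Of all genes tested, 15.8% and 13.2% fell there. The TMZ counts of the cytosolic family moved with the settings, from 1 to 31 and from 0 to 36 falls. Whether the families differ was not tested.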

How the data were processed

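Poly(A) RNA of 12 U251 libraries was read on an Illumina NovaSeq, per the labels' protocols. Tools named in the submitters' processing notes are RSEM, HISAT2, StringTie 1.3.1, Bowtie2 2.2.8 and fastp 0.18.0, with no role stated. The authors' genome build is not given in the sources used here. The deposited tables hold estimated counts per gene (10.7% to 12.0% of values are fractions) and FPKM values, also made by the authors.

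After rounding, the estimated counts went into edgeR 4.0.16 (R 4.3.3): filterByExpr, TMM scaling, 4 group means, quasi-likelihood test, Benjamini-Hochberg adjustment over 12821 genes. At the library totals given, 3 counts are 0.121 to 0.222 CPM. SE is the log2 fold change over the square root of F. A simulation with 200 changed genes was used to test the scripts. Of the 20289 rows, 583 have no symbol. Columns marked NC with TMZ were read as control hairpin.

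Members, lists and tests were chosen with earlier results of these data known. Members given in full were, per comparison, the 4 largest called rises and falls with at least 5 CPM, the 3 highest and 3 lowest in FPKM, and 11 fixed ones; others named were chosen after their values were seen. Alternatives were other scalings and filters, DESeq2 1.42.0, limma 3.58.1 on log2(FPKM + 1) or log2(FPKM + 0.1), a replicate block, a GC correction (splines, 5 degrees of freedom), only the groups compared, a threshold of 0.01 and each library left out. Positions and GC content come from GENCODE 29. Protein sequences were not used here.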

Additional observations from a re-analysis of the deposited data

Results flagged for a closer look

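AARS2, the mitochondrial alanyl-tRNA synthetase, differed between the kinds of cell in its response to TMZ by the interaction term of the edgeR model: 0.37 on the log2 scale (SE 0.09, adjusted p = 0.0469). In control DMSO it was at 34.8, 32.6 and 34.3 CPM, in knockdown DMSO at 26.7, 28.8 and 27.2 CPM, and at 31.2, 31.8 and 30.6 CPM in control TMZ and 34.4, 33.8 and 29.7 in knockdown TMZ. The knockdown DMSO libraries were the 3 lowest of the 12. It fell with knockdown under DMSO by 0.30 (SE 0.06, adjusted p = 0.000591) and rose with TMZ in knockdown cells by 0.25 (adjusted p = 0.00662), while the other 2 changes, 0.07 (0.383) and -0.12 (0.155), were not called. The interaction was called under 9 of the 23 other settings, over which it ran from 0.26 to 0.43. Groups of 3 libraries are too small for the test for single outlying samples.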

How the results depend on the processing

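Of 230 results for named members, 78 were called, of which 28 stayed called under every setting run and 50 were lost under at least 1, with no sign reversed while called. Of 270 results for genes of the other lists 113 were called, and 43 stayed called. With knockdown under DMSO, LRPPRC was not called (0.00) but was called lower with GC correction (-0.0746) and with GC correction and block (-0.0741). VARS2 was called lower (-0.14) but had the other sign, uncalled, in the FPKM fits (0.0483, 0.0507 and 0.0483).

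With knockdown under DMSO the count of rises (4) was 8 with library totals alone, 2 with GC correction, 2 with GC correction and block, and 7 in the FPKM fits with pseudocount 1 and 7 with 0.1. The share of all genes that rose in those runs was 26.4%, 18%, 18.2%, 20.7% and 20.7%, in the same order. The falls (21) were 34 with GC correction and block, 12, 12 and 9 in the FPKM fits with pseudocount 1, 0.1 and without a filter, 13 at the threshold of 0.01 and 12 to 26 with 1 library left out (12 without control DMSO 3). Of all genes, 26.2% fell with GC correction and block and 15.2%, 15.2% and 9.46% in the FPKM fits. At 0.01 that share was 15.4%, and without control DMSO 3 it was 18%. The median of the small subunit was -0.1207 to -0.0196 with 1 left out. With knockdown under TMZ the rises (5) were 8 with totals alone and 4 to 8 with 1 left out (8 without knockdown TMZ 3), and the falls (22) were 13, 13 and 11 in the FPKM fits and 14 at 0.01. Of all genes, 27% rose with totals alone and 20.4% without knockdown TMZ 3. The share that fell was 14.7%, 14.7% and 9.11% in the FPKM fits and 14.7% at 0.01. With totals alone the members' falls were 14 and 17.

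With TMZ in control cells the rise (1) was 4 with totals alone, 2 without a filter, 0 with GC correction and 0 with GC correction and block, 4, 4 and 2 in the FPKM fits, 0 to 2 with 1 left out and 0 at 0.01. Of all genes, 22.4% rose with totals alone, 9.41% without a filter and 10.8% with GC correction. In the FPKM fits 16%, 16% and 9.04% rose, and 6.33% at 0.01. The falls (16) were 6 with totals alone, 5, 5 and 5 in the FPKM fits, 9 to 18 with 1 left out and 7 at 0.01. Of all genes, 10.1% fell with totals alone, 8.23%, 8.24% and 4.87% in the FPKM fits and 10.7% at 0.01. The large-subunit median was 0.015 with totals alone and 0.0135, 0.0139 and 0.0135 in the FPKM fits, the small-subunit median -0.0035 and 0.0177, 0.018 and 0.0177, beside medians of all genes of 0.0626 and 0.0555, 0.0611 and 0.0168. In knockdown cells the rise (1) was 0 with relative log expression factors and 0 with DESeq2, 2 with totals alone, 2 without a filter, 2 with the block, 4 and 4 in the filtered FPKM fits, 0 to 2 with 1 left out and 0 at 0.01. The shares of all genes that rose were 7.96%, 5.82%, 19.8%, 6.41% and 9.53% in the first runs named, up to the block. In the filtered FPKM fits 12.7% and 12.6% rose, and 3.93% at 0.01. The falls (8) were 1 with totals alone, 1, 1 and 1 in the FPKM fits, 2 to 9 with 1 left out and 2 at 0.01. Of all genes, 8.41% fell with totals alone, 6.1%, 6.04% and 3.88% in the FPKM fits and 8.38% at 0.01. The members' medians were -0.0059 and 0.0085 with totals alone and 0.0035, 0.0036 and 0.0035 and 0.018, 0.0185 and 0.018 in the FPKM fits, beside 0.0668 and 0.0606, 0.0666 and 0.0235 for all genes. So the members' medians with TMZ lay below that of all genes in each of these fits, except the small subunit in control cells without a filter. For the interaction, rises numbered 1 without a filter, 1 with the stricter filter, 1 with the block, 1 with DESeq2 and 0 to 1 with 1 left out, and falls 1 without a filter and 0 to 1 with 1 left out. All-gene shares for rises were 1.09%, 0.559%, 0.803% and 0.975% up to DESeq2, and 2.1% for falls without a filter. The subunit ratio changed by -0.025 with TMZ in control cells in the mean of logs and by 0.024 in knockdown cells without MRPL33, a setting chosen after seeing the data. The cause of these shifts was not tested.

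Same-numbered libraries correlated at -0.077 to 0.136 over 18 pairs, 1 of them over 0.1, and 6 of 12 libraries were closest to their own number, so the numbers were not taken as pairs. With the replicate block, falls and rises were 23 and 4, 23 and 6, 16 and 1, and 8 and 2 in the 4 comparisons.

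The lowest count of a member in a library was 135. The limits are 3 libraries per group, unknown strand use in counting for the 34 members that share exonic bases with another gene, and control DMSO 3.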
